A study of Mus musculus with 11 samples.

Results

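The HoxA, HoxB, HoxC and HoxD gene clusters were followed by reduced representation bisulfite sequencing (RRBS) in cultured mouse cells of C57BL/6 origin, labelled ER-Hoxa9-Lys-GFP, which carry a Hoxa9 fusion that depends on estradiol. RRBS reads methylation at CpG sites in CpG-rich fragments of genomic DNA after bisulfite conversion. The members were all CpGs listed in any of the 11 libraries inside 4 mm9 windows that together hold 38 named Hox genes. The HoxA window is 120 kb long with listed CpGs over chr6:52100705-52216760, and the HoxB window is 185 kb long with listed CpGs over chr11:96051301-96229458. The HoxC window is 127 kb long with listed CpGs over chr15:102750599-102871687, and the HoxD window is 106 kb long with listed CpGs over chr2:74504858-74602405. They numbered 3187 of 1480817 listed CpGs on chromosomes 1 to 19 and X, with 910 in HoxA, 810 in HoxB, 650 in HoxC and 817 in HoxD.

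All libraries came from the same cells in RPMI medium with serum and SCF-conditioned medium, and they differed in estradiol (E2). A single library was kept in E2 throughout. Another 4 groups of 2 libraries each spent 24 h, 40 h, 56 h or 72 h without E2 and were then given E2 again for 96 h, 80 h, 64 h or 48 h. A last group of 2 libraries spent 120 h without E2. Longer absence always went with shorter return, so these cannot be told apart. Replicates were not stated to be separate cultures, so the p-values measure the spread between libraries, which may be technical. No RNA was measured, so the labelled cell type was not checked against marker genes.

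Hox genes encode homeodomain transcription factors that specify position along the body axis, and they lie in clusters whose gene order follows their order of expression. Within myeloid progenitors, Hoxa9 and its neighbours keep cells immature and self-renewing, and an estradiol-dependent Hoxa9 fusion holds cells in that state while the hormone is present. CpG-rich promoters are usually free of DNA methylation, and in embryonic cells Hox promoters are typically kept silent by Polycomb proteins rather than by DNA methylation.

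Promoters were shown by sequence because the windows carry no gene annotation in mm9 here. RefSeq (GRCm38.p6) gave 24 promoter sequences for 22 of the 38 genes, each with 250 bases before the start and 50 after. A sequence was placed in its mm9 window where at least 5 listed CpGs fell there, every one on a CpG of the sequence, at a single place. This placed 11 genes: Hoxa5, Hoxa6, Hoxa11 and Hoxa13 in HoxA, and Hoxd13, Hoxd12, Hoxd11, Hoxd10, Hoxd9, Hoxd3 and Hoxd1 in HoxD. The placed starts kept the RefSeq order in both clusters. Distances between neighbouring starts equalled those of RefSeq in 6 of 6 cases in HoxD and 2 of 3 in HoxA, where the other differed by 5 bases. None of the sequences of HoxB or HoxC was placed, nor were those of Evx1 and Evx2, the homeobox genes beside HoxA and HoxD. The 5 sequences below show 2 neighbouring genes of HoxA, 2 well covered genes of HoxD (Hoxd11 and Hoxd1), and Hoxd12, the promoter with the lowest level over all libraries. They give the 250 bases before the start, 5′ to 3′, with the CpGs read by RRBS in capitals.
Hoxa5, chr6:52154587-52154836, minus strand: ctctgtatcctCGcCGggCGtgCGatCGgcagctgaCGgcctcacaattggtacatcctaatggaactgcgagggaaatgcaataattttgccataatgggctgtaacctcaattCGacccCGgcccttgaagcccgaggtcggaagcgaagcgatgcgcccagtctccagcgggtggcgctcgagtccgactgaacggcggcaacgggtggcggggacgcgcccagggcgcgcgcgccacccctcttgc
Hoxa6, chr6:52158672-52158921, minus strand: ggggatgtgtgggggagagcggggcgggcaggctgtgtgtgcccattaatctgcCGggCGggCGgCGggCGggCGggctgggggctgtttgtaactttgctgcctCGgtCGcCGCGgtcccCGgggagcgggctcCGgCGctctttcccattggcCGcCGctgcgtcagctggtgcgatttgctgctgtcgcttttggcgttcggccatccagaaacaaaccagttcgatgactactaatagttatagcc
Hoxd12, chr2:74512820-74513069, plus strand: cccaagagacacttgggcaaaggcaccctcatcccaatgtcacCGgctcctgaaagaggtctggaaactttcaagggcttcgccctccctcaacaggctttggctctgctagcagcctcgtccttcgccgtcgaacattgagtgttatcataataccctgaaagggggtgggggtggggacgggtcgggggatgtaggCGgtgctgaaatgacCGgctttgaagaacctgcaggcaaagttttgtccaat
Hoxd11, chr2:74520130-74520379, plus strand: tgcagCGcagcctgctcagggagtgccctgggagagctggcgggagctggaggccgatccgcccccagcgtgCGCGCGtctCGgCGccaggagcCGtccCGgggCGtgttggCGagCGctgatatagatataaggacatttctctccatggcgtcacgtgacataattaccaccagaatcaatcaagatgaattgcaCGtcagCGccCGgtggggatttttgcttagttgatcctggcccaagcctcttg
Hoxd1, chr2:74600787-74601036, plus strand: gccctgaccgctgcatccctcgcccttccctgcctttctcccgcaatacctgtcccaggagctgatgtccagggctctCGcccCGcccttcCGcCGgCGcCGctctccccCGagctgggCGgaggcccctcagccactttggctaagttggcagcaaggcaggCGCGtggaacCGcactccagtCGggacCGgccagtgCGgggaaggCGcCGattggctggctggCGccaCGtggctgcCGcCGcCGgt

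At the CpGs read by RRBS, the placed Hox promoters other than Hoxd12 were almost fully methylated. Summed over all libraries, methylation was 98.4% at Hoxa5, 91.9% at Hoxa6, 97.1% at Hoxa11 and 95.4% at Hoxa13. In HoxD it was 97.9% at Hoxd13, 98.4% at Hoxd11, 95.6% at Hoxd10, 95.2% at Hoxd9, 98.7% at Hoxd3, 96.0% at Hoxd1 and 79.3% at Hoxd12. Thus 10 of 11 were at 80% or more. These levels cover only part of some promoters. Listed were 8 of 29 CpGs of the sequence at Hoxa5, 5 of 15 at Hoxa11 and 6 of 37 at Hoxd13, against 22 of 29 at Hoxd1. The 7 listed CpGs of Hoxd3 all lay in the 50 bases after its start, with 0 measured in the 250 bases before it. Some Hoxa13 CpGs were at 0% to 33.3%, but with 2 or 3 reads each, too few to give a level. For comparison, 6697 other promoters with 10 or more CpGs were placed over whole chromosomes by a similar but not identical rule. It asked for at least 8 listed CpGs, another limit on matches at the next best place, and at least 100 CpG reads. Their median was 0.397%, and 17.2% were at 80% or more. Of the 7 placed Hox promoters with 8 or more listed CpGs, 7 were at 80% or more. The Hox set is a small and chosen one, and no test of this difference was made. Hoxd9 to Hoxd13 and Hoxa11 and Hoxa13 are posterior genes, Hoxd1 and Hoxd3 anterior ones, and Hoxa5 and Hoxa6 lie in the middle of HoxA.

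Library by library, the posterior gene Hoxd11 (18 listed CpGs) ranged from 95.2% to 100%, with a median of 98.8%. Hoxd1 (22 listed CpGs) ranged from 93.5% to 100%, with a median of 96.3%. Hoxa5 ranged from 96.6% to 100%, with a median of 98.6%. The continuous E2 library was the lowest of the 11 at Hoxd11 (95.2%, 147 CpG reads) and the highest at Hoxd1 (100%, 75 CpG reads), while at Hoxa5 it lay within the range of the others (99.1%).

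Hoxa6 varied most. Its value was 97.2% with continuous E2 (36 CpG reads), 96.0% and 98.8% after 24 h, 93.1% and 93.3% after 40 h, 93.2% and 73.9% after 56 h, 66.7% and 88.6% after 72 h, and 95.1% and 99.2% after 120 h. The low libraries were the first 72 h library (102 CpG reads) and the second 56 h library (23 CpG reads). The 2 libraries of 72 h lay below all others apart from that second 56 h library. The sequence was not tested as a unit. Hoxd12 ran from 75.3% to 84.8% over the libraries, with a median of 81.2%. It was the lowest of the 11 promoters apart from Hoxa6 in those same 2 libraries, the first of 72 h and the second of 56 h. Its single CpGs with at least 20 reads ran from 56.0% to 97.5%, a wider span than at Hoxa5 (97.0% to 100%).

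Genes of the Hox cofactors, the TALE homeodomain proteins that bind DNA together with Hox proteins, were looked up in the same libraries. Promoters of 2 of 9 such genes could be placed. Meis3 was at 1.72% and Pbx2 at 1.02% over all libraries. Levels this low were usual, since 74.1% of the 6697 other promoters were under 5%.

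**Figure D1:**
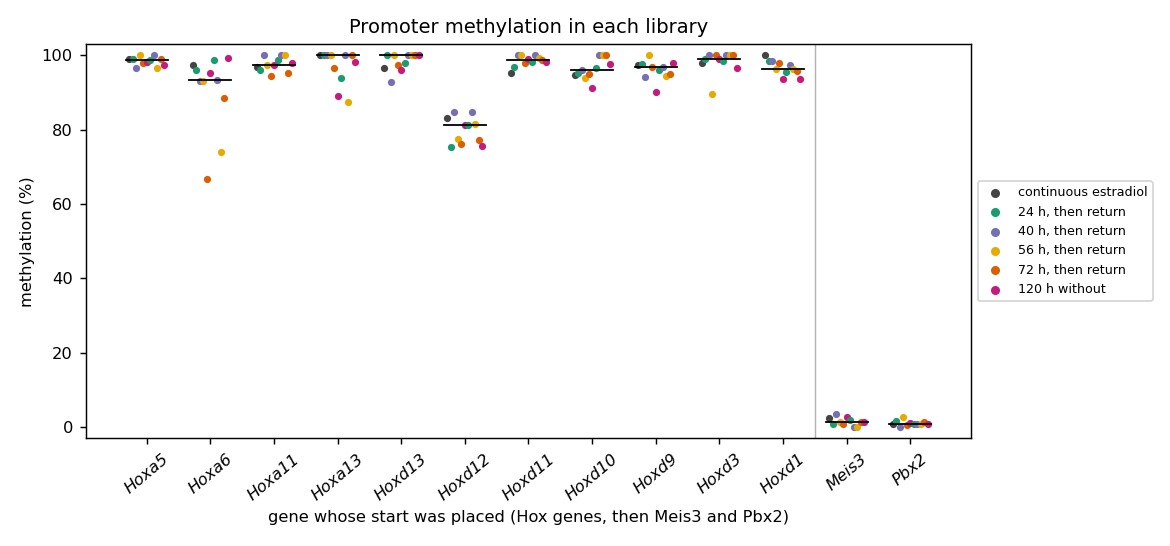
Methylation (percent, vertical axis) of the 11 placed Hox promoters and of Meis3 and Pbx2, with a point for each of the 11 libraries coloured by group and a bar at the median. The Hox promoters lie near the top, apart from Hoxd12 and the low points of Hoxa6, and Meis3 and Pbx2 lie below 4%.

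CpG density separated the Hox clusters from the rest of the genome. Tiles of 500 bp were called dense with 20 or more listed CpGs and sparse with 1 to 5, among tiles with at least 100 CpG reads over all libraries. The 44 dense Hox tiles had a median methylation of 96.1%, and 42 of them (95.5%) were at 80% or more. Elsewhere, 11848 dense tiles had a median of 0.892%, 57.4% of them were under 5%, and 32.5% were at 80% or more. None of the dense Hox tiles was under 5%. All 14 dense tiles of HoxA and all 16 of HoxD were at 80% or more, as were 7 of 8 in HoxB and 5 of 6 in HoxC. The dense Hox tiles held this level in each library, from 90.0% to 91.6% of reads, against 21.0% to 25.9% for dense tiles of the rest. No test of the difference was made.

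Sparse tiles had a lower median than elsewhere in HoxB, HoxC and HoxD, but not in HoxA. Between the dense and sparse classes, 140 Hox tiles had a median of 87.1%, against 91.9% for 46275 tiles elsewhere. The 171 sparse Hox tiles had a median of 84.8%, against 94.1% for 246708 sparse tiles elsewhere. HoxC had the lowest sparse median, at 51.5% (44 tiles), followed by HoxD at 79.8% (33), HoxB at 89.6% (60) and HoxA at 96.1% (34). Across tiles, Spearman's rho between listed CpGs and methylation was 0.21 over all 355 Hox tiles, 0.57 in HoxD (73 tiles) and 0.36 in HoxC (85), but -0.03 in HoxA (87) and 0.02 in HoxB (110). It was -0.18 over 304831 other tiles. Neighbouring tiles share libraries and base composition, so these rho values are descriptions.

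**Figure D2:**
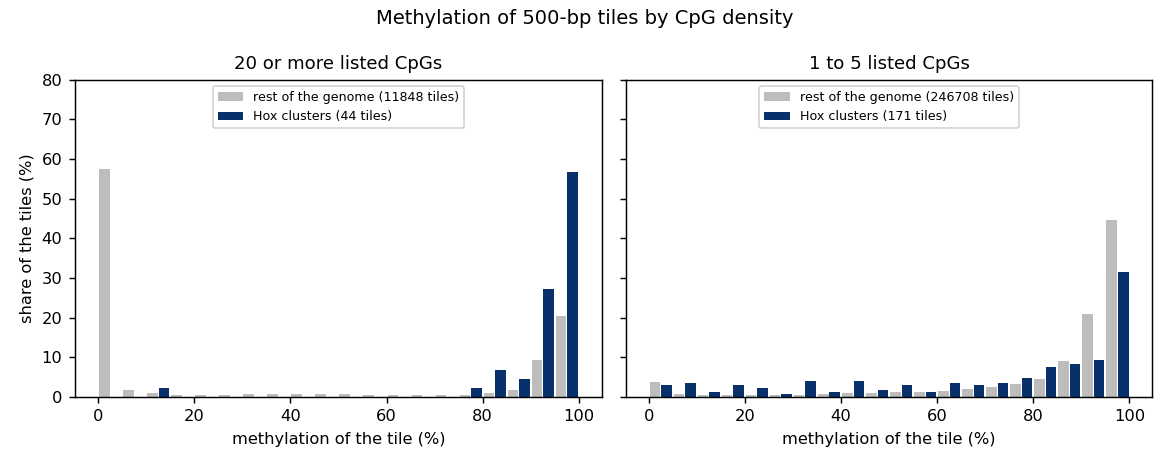
Share of 500-bp tiles (percent, vertical axis) in 5-point classes of methylation (horizontal axis), for dense and sparse tiles, with Hox tiles in dark bars beside those of the rest of the genome in grey. Dense tiles elsewhere pile up at 0 to 5%, where the Hox clusters have none, while dense Hox tiles sit at the right.

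Levels differed between the clusters. Summed over all libraries, 86.3% of reads were methylated in HoxA, 77.6% in HoxB, 69.8% in HoxC and 87.7% in HoxD, against 61.3% over all listed CpGs. The median tile was at 93.7% in HoxA, 89.5% in HoxB, 72.4% in HoxC and 89.7% in HoxD, against 93.5% over 304831 tiles elsewhere. By median tile, HoxB, HoxC and HoxD were thus lower than the rest of the genome, the opposite of the summed reads. At 80% or more were 62.25% of the 355 Hox tiles, against 75.58% elsewhere. HoxC stood lowest of the 4 by summed reads and by median tile. Single CpGs with at least 50 reads fell between 20% and 80% more often in HoxC (30.3% of 479) than in HoxB (19.1% of 565), HoxA (17.4% of 672) and HoxD (12.9% of 603), while 10.6% did so elsewhere.

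Group levels moved little. In HoxA they were 85.7% with continuous E2, 86.4% ± 1.07 (SD, n = 2) after 24 h, 87.2% ± 0.292 after 40 h, 86.7% ± 0.943 after 56 h, 86.5% ± 0.751 after 72 h and 86.1% ± 0.0107 after 120 h. In HoxC they were 73.6% with continuous E2, 70.0% ± 1.53 after 24 h, 70.5% ± 0.0625 after 40 h, 71.0% ± 1.53 after 56 h, 69.2% ± 0.608 after 72 h and 69.4% ± 0.284 after 120 h. The E2 library of HoxC was the highest of the 11 libraries, with a Wilson 95% lower limit of 72.2%. In HoxB the group means lay between 77.0% and 78.8%, and in HoxD between 87.4% and 88.5%. Pooling the reads of each group gave 86.0% to 87.2% after absence in HoxA. Intervals cover counting error only, since PCR reads are not independent molecules. Median depth per listed CpG in these clusters ran from 3 to 17 reads per library, and library totals from 8234933 to 46899896 CpG reads, lowest in the 40 h and 56 h libraries.

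Runs of adjacent tiles with nearly full methylation were short beside the windows. A run also ended where the next tile had fewer than 100 CpG reads, so coverage limited its length. Only 87 tiles reached that depth in the 120-kb window of HoxA. The longest runs of adjacent tiles at 95% or more were chr6:52125501-52128000 in HoxA (5 tiles, 63 CpGs, 96.8%) and chr11:96205501-96208000 in HoxB (5 tiles, 47 CpGs, 96.8%). In HoxD such a run reached over chr2:74519501-74521500 (4 tiles, 107 CpGs, 97.7%) and holds the Hoxd11 start. HoxC had none longer than 2 tiles, at chr15:102752001-102753000 (29 CpGs, 97.2%). The most methylated single tiles were chr6:52211001-52211500 (99.4%), chr11:96088501-96089000 (100%), chr15:102858501-102859000 (98.2%) and chr2:74597501-74598000 (100%), each with 1 or 2 CpGs.

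In steps of 10 kb, HoxB held the lowest stretches, with 24.0% from chr11:96100001 and 36.0% from chr11:96170001, where single libraries ran from 28.4% to 43.0%. The lowest steps were at 53.4% in HoxC, 68.1% in HoxA and 72.1% in HoxD. These levels describe the CpGs that RRBS lists, and some steps hold few of them, such as 6 in the step from chr11:96100001. Over 135 Hox tiles with 50 or more CpG reads in each of the 6 pooled groups, the median range between groups was 5.99 points and the largest 25.1 points. That range had a median of 8.59 points in HoxC, 6.12 in HoxB, 4.23 in HoxA and 4.06 in HoxD.

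Low tiles, under 20%, were mostly small. They made up 5.915% of the 355 Hox tiles, against 10.23% of tiles elsewhere. Among sparse tiles the order was the reverse. There, 18 of 171 Hox tiles were under 20%, a larger share than the 5.43% of sparse tiles elsewhere. Among dense tiles it was 1 of 44 in the Hox clusters, against 60.5% elsewhere. No test of these differences was made. Under 20% were 3 tiles in HoxA, 8 in HoxB, 7 in HoxC and 3 in HoxD, and with the exception of HoxA their median held 1 or 2 listed CpGs. The least methylated in HoxA was chr6:52161501-52162000 (11 CpGs, 2.50%), which ranged from 0 to 8% over the libraries. The least methylated of the other clusters were chr11:96101501-96102000 (0 of 149 reads, which allows a share of up to 2.01%), chr15:102817001-102817500 (0.948%) and chr2:74559501-74560000 (6.90%). HoxC had the longest run of adjacent covered tiles under 5%, of 2 tiles at chr15:102817001-102818000. The 3 low HoxA tiles lay between the placed starts of Hoxa6 and Hoxa11, where RefSeq order puts Hoxa7, Hoxa9 and Hoxa10. In HoxD, the tiles starting at chr2:74559501 and chr2:74566501 (13.4%) lay between the placed Hoxd3 and Hoxd1 starts, and that at chr2:74534501 (18.8%) between those of Hoxd10 and Hoxd9.

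A single dense tile was low. At chr11:96176001-96176500 in HoxB, 25 CpGs with 4654 reads were at 13.2%, and the libraries ranged from 11.5% to 19.1%. Its edges were sharp: the 4 CpGs from chr11:96175906-96175933 were at 96.5%, and the 25 CpGs of the tile ran from 0.769% to 29.7%. The CpG just after the tile, at position 96176503, was at 89.3%. Steps of 50 points or more between CpGs within 200 bases were found in 83 of 2034 Hox pairs (4.08%) and in 2.24% of pairs elsewhere.

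**Figure D3:**
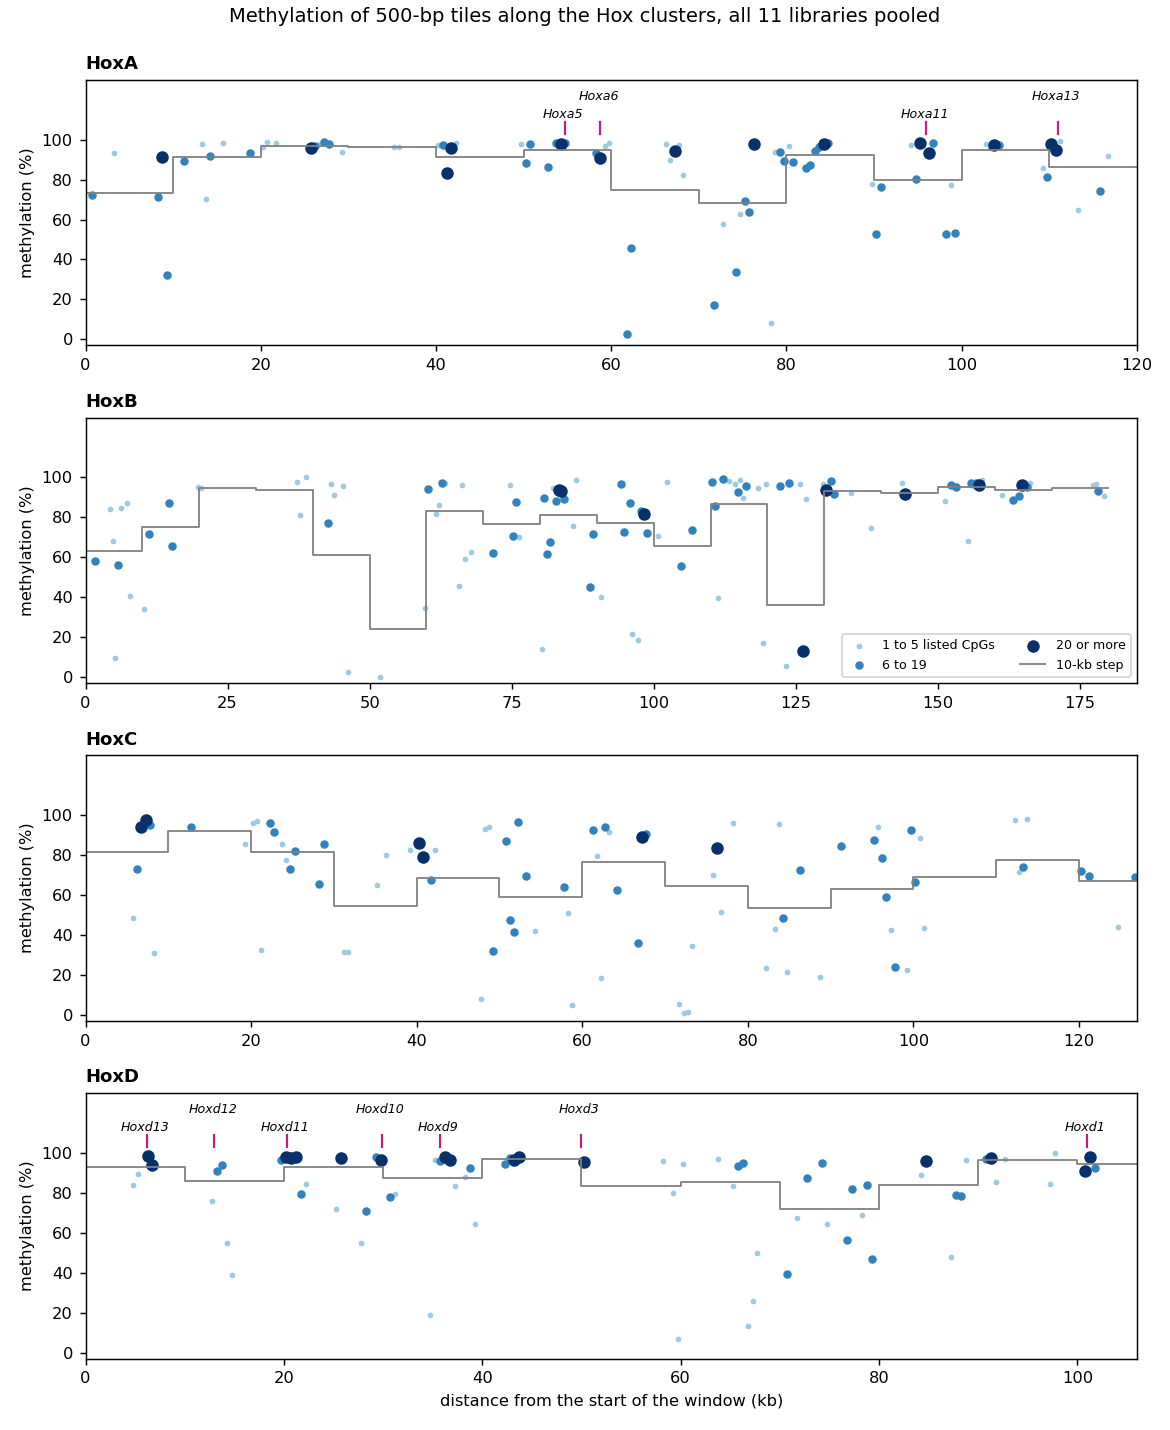
Methylation (percent, vertical axis) of 500-bp tiles with at least 100 CpG reads, all libraries pooled, against distance from the window start (kb), with point size and shade for listed CpGs, grey steps for 10-kb levels and pink ticks at placed starts. Dense tiles lie near the top in every cluster apart from 1 in HoxB, and HoxC has the lowest median tile (72.4%).

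The Hoxa9 fusion could add reads at the Hoxa9 exons, so depth was compared between places. The Hoxa9 start could not be placed, as its promoter has 4 CpGs. Between the placed Hoxa6 and Hoxa11 starts (chr6:52158671-52195809, which should hold Hoxa9), the 34 tiles had a median depth of 1.02 times the median Hox tile of the same library, and the highest was 2.5 times. In the rest of HoxA the highest was 2.37 times, and in HoxB, HoxC and HoxD 2.54, 2.56 and 2.75 times. The deepest HoxA tile thus lay in that interval, while HoxB, HoxC and HoxD each had a deeper one. Depth varied widely between tiles and the Hoxa9 exons were not located, so these maxima cannot show whether fusion reads were present. The tile chr6:52174001-52174500, named below, was at 1.95 times (1.68 to 2.54 over the libraries). Methylation was lower in the interval, with a median tile of 88.9% and 12 of 34 tiles under 80%, against 96.0% and 9 of 53 in the rest of HoxA. Any part of fusion reads in these values was not tested.

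No Hox tile passed the test in any comparison of estradiol conditions. Tiles with at least 3 CpGs of 10 or more reads in each compared library (5 or more for the slope) were tested with a quasi-binomial model whose dispersion was moderated by limma, and adjusted over all tiles of the genome. After 120 h without E2 against 24 h then return, 0 of 133 Hox tiles were called, against 36 of 71323 tiles overall (0.0505%), and 3 had an unadjusted p under 0.05, which 5.19% of all tiles had. For 72 h against 24 h, 0 of 123 were called (0.0504% overall), with 3 at an unadjusted p under 0.05 (5.09% overall). For 120 h against continuous E2, 0 of 98 were called, against 0 of 51370 overall (0%), with 5 at an unadjusted p under 0.05 (1.81% overall). This last comparison has 1 E2 library, so its own spread is unknown and the 120 h pair stands in for it. For long absence (72 h and 120 h) against short or none (24 h and continuous), 0 of 72 were called (0.14% overall), with 4 at an unadjusted p under 0.05 (5.92% overall). Over the 8 returned libraries, 0 of 80 tiles had a called slope with hours (0.0133% overall), and 0 had an unadjusted p under 0.05 (6.18% overall). Limma on log2 odds called 0 tiles in each comparison, and 5, 0, 5, 1 and 1 Hox tiles in the same order had an unadjusted p under 0.05. A missed threshold does not show that values were the same. The lowest adjusted p of any Hox tile in the 5 quasi-binomial fits was 0.702, and it was 0.573 with limma on log2 odds and 0.399 over all alternatives. The genome-wide calls also depended on the libraries and the method. For 120 h against 24 h (36 calls) and 72 h against 24 h (34 calls), leaving out any 1 of the 4 libraries leaves 1 in a group. Such a fit loses power, so it cannot show whether those calls are stable. For long against short absence the 61 calls became 25 without the second 24 h library and 40 without the first 120 h library. The 6 calls of the slope became 0 without any 1 of the 24 h or 72 h libraries.

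Between 120 h and 24 h the median difference was 0.10 points (133 tiles), against -0.04 points over all tiles, and all 133 differed by less than 10 points, as did 98.5% of all tiles. The largest differences upward were chr15:102802501-102803000 (49.7% to 59.5%), chr15:102818001-102818500 (29.2% to 37.8%) and the tile that starts at chr15:102871501 (57.0% to 65.6%), all in HoxC. Downward, the largest were chr6:52209501-52210000 (73.5% to 64.2%), chr15:102865001-102865500 (63.9% to 56.0%) and chr11:96054501-96055000 (72.3% to 65.1%). At chr15:102802501-102803000 the libraries gave 43.9% and 55.5% after 24 h and 59.6% and 59.4% after 120 h, so the 24 h pair alone differed by more than the groups (limma-moderated adjusted p 0.935).

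Between 72 h and 24 h the median difference of Hox tiles was -0.33 points, against -0.07 overall. The most lowered tile was chr6:52174001-52174500 in HoxA, between the placed Hoxa6 and Hoxa11 starts. Its 24 h libraries were at 38.2% and 28.0%, its 72 h libraries at 20.3% and 20.2%, and its 120 h libraries at 34.5% and 18.6%. The 72 h pair was below the 24 h pair, while the 120 h pair overlapped it (72 h against 24 h, adjusted p 0.923). The next were chr6:52175501-52176000 (69.4% to 59.6%) and chr2:74537001-74537500 (87.7% to 78.8%). The most raised were chr15:102773501-102774000 (83.0% to 91.9%), chr11:96138501-96139000 (39.4% to 47.7%) and chr15:102802501-102803000 (49.7% to 57.3%).

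Against the single E2 library, 12 of 98 Hox tiles differed by 10 points or more after 120 h, so that 87.8% of Hox tiles and 95.6% of all 51370 tiles differed by less. No test of that difference was made, and the sets are unlike in level. Among tiles with at least 100 CpG reads, 31.8% of Hox tiles and 14.2% of tiles elsewhere lay between 20% and 80%. Counting error is larger at such levels than near 0% or 100%, and its part was not tested. The largest was chr6:52141001-52141500, at 24.6% with E2 (Wilson 95% interval 15.8% to 36.3%) and 47.4% and 48.3% after 120 h (adjusted p 0.907). There the 24 h libraries, at 35.7% and 37.4%, lay between. The 40 h, 56 h and 72 h libraries ran from 32.4% (a 72 h library) to 60.9% (a 40 h library). The level of these CpGs thus did not rise steadily with hours without E2. These values cover the 4 CpGs tested, while all 46 listed CpGs of that tile were at 83.3% over all libraries. Next upward were chr6:52198001-52198500 (32.8% to 46.8%) and chr6:52150001-52150500 (74.6% to 85.7%). Downward, chr6:52190001-52190500 was at 69.3% with E2 (58.2% to 78.6%) and 44.5% and 52.0% after 120 h. It was followed by chr15:102798001-102798500 (72.6% to 56.1%) and chr15:102865001-102865500 (71.2% to 55.8%).

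Set over 7 libraries, chr15:102773501-102774000 in HoxC gave the lowest adjusted p. Libraries with short or no absence were at 82.0%, 81.6% and 84.5%, and those with long absence at 88.0%, 95.8%, 90.2% and 90.7% (82.7% against 91.2%, adjusted p 0.702). The sides did not overlap, but the 40 h libraries, at 100% and 88.7%, were as high as the long side. In this comparison the other large differences were chr2:74539001-74539500 (53.1% to 57.0%) and chr11:96055501-96056000 (84.1% to 88.0%) upward. Downward they were chr6:52190001-52190500 (57.5% to 46.3%), chr15:102865001-102865500 (62.1% to 51.6%) and chr6:52174001-52174500 (31.7% to 23.4%). Over the returned libraries, the tiles that differed most between 24 h and 72 h were chr11:96109501-96110000 (21.1% to 38.1%), chr15:102773501-102774000 (81.8% to 91.2%) and chr15:102802501-102803000 (61.5% to 70.6%) upward. Downward they were chr15:102796501-102797000 (46.5% to 37.9%), chr6:52199001-52199500 (57.1% to 49.1%) and chr6:52174001-52174500 (33.8% to 25.8%). At chr11:96109501-96110000 the 24 h libraries were at 0% (24 CpG reads) and 42.2% (64 CpG reads). Its 72 h libraries were at 31.4% and 44.7%, so the pairs overlapped (quasi-binomial slope, adjusted p 0.961).

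**Figure D4:**
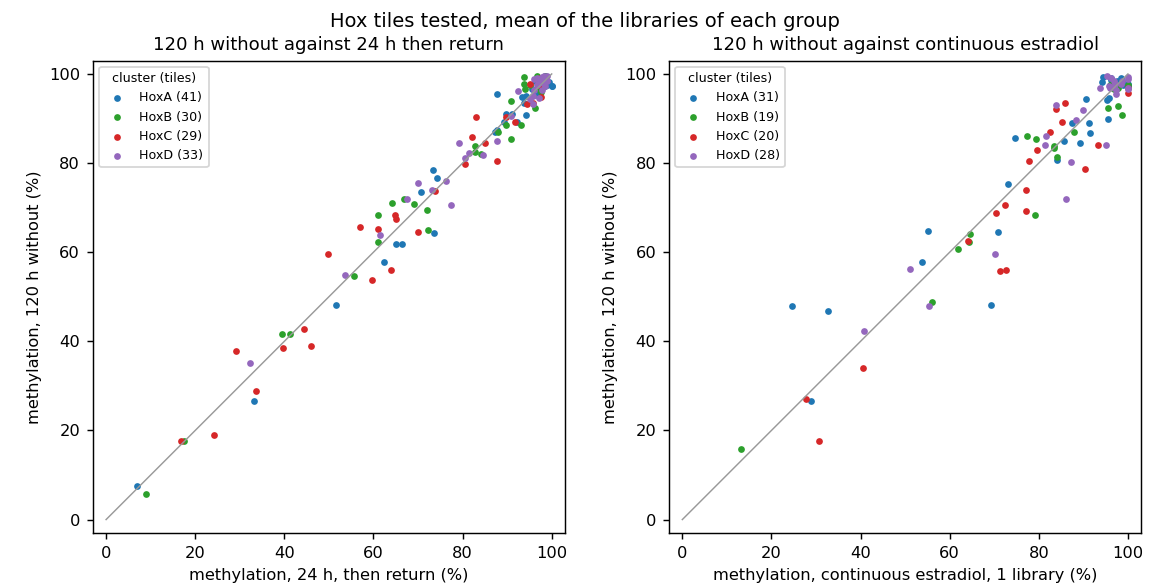
Mean methylation (percent) of the Hox tiles tested, 120 h without estradiol (vertical axis) against 24 h then return (left) and against the 1 continuous-estradiol library (right), coloured by cluster, with the line of equal values. All 133 points on the left lie within 10 points of the line, and those on the right scatter more widely.

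Cluster means at CpGs with 5 or more reads in all 11 libraries were set against hours without estradiol. HoxC (110 CpGs) was lower with more hours: 70.5% with continuous E2, 69.6% and 69.9% after 24 h, 70.3% and 70.3% after 40 h, 69.1% and 69.4% after 56 h, 69.4% and 70.1% after 72 h, and 68.7% and 69.2% after 120 h. The 11 values spanned 1.73 points, and the slope was -1.12 points per 100 h. The Pearson correlation was -0.749 (permutation p = 0.0076, or 0.0304 after Benjamini-Hochberg adjustment for 4 clusters) and Spearman's rho -0.713 (permutation p = 0.0184, adjusted p = 0.0737). Without the 120 h pair, the 2 libraries farthest from the median hours, r was -0.530. It missed the threshold without the E2 library (r = -0.676, adjusted permutation p = 0.128), the first 120 h library (r = -0.639, adjusted permutation p = 0.161), the second 120 h library (r = -0.733, adjusted permutation p = 0.0538) or the first 72 h library (r = -0.744, adjusted permutation p = 0.053). It also did so with CpGs of 1 read (r = -0.379, adjusted permutation p = 0.5), CpGs of 10 reads (r = -0.487, adjusted permutation p = 0.257) and pooled reads (r = -0.521, adjusted permutation p = 0.4). Over all 391374 such CpGs of the genome the same measure gave r = -0.800 (permutation p = 0.00356).

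In the other clusters the correlation missed the threshold. Pearson's r was -0.264 in HoxA, -0.137 in HoxB and 0.106 in HoxD, each with an adjusted permutation p of 0.747. HoxA was highest in the 40 h libraries, at 87.3% and 88.7%, and these are among the shallowest. The part of depth in that level was not tested.

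**Figure D5:**
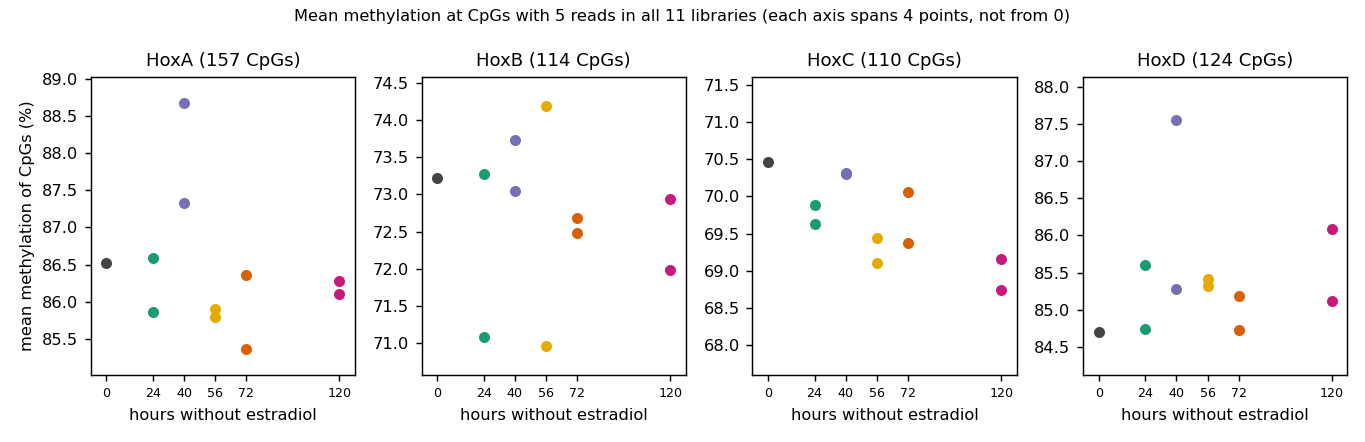
Mean methylation of the CpGs of each cluster (percent, vertical axis, spanning 4 points and not starting at 0) against hours without estradiol, with 1 point per library coloured by group. HoxC points were at 70.5% at 0 h and at 68.7% and 69.2% at 120 h, with the 40 h pair (both 70.3%) above the 24 h pair (69.6% and 69.9%). Its correlation passed the threshold with this measure but missed it with CpGs of 1 read, CpGs of 10 reads and pooled reads. The correlation in the other clusters missed the threshold.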

How the data were processed

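RRBS was carried out on 11 libraries. The deposited tables hold, for each CpG, the methylated and total read counts (a raw count pair), and a score from 0 to 1000 that equals 1000 times their share, so the counts were used. The genome build was mm9, per the submitters' processing notes; the aligner, methylation caller, trimming and duplicate treatment are not given in the sources used here. Positions are 1-based in mm9 and none was converted. Members and lists were chosen with earlier results of these data known.

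Reads were summed over CpGs into 500-bp tiles (at least 3 CpGs, each with 10 or more reads in every compared library, or 5 for the slope). A quasi-binomial logistic model was tested with a two-sided deviance F test, with dispersion moderated by limma 3.58.1 squeezeVar with a trend on depth and kept at 1 or more, and Benjamini-Hochberg adjustment over all tiles tested on chromosomes 1 to 19 and X (threshold 0.05). The first run on the data took the dispersion from Pearson residuals without a depth trend. Because that version made many false calls on simulated data, it was replaced; 0 Hox tiles were called with either, while the counts over the genome differ. The rule first written for placing promoters (6 listed CpGs and 80% of the CpGs of the sequence) placed 0 of them and was relaxed after seeing the data. The density limits and the 200-base steps were also chosen after seeing the data. Named tiles are the 3 largest differences each way among the Hox tiles tested, and the most and least methylated tile of each cluster. The dense HoxB tile, the Hoxa6 and Hoxd12 values were singled out after they were seen.

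Correlations with hours used 100000 permutations. Alternatives covered read minimums, tile width, limma on log2 odds, the dispersion, all libraries in 1 fit, replicate number as a block, leaving out libraries, and pooled reads. No pairing by replicate number was seen: differences between replicates correlated between groups at -0.0153 to 0.0263 (10 pairs, 0 over 0.1). Counting error at low depth can hide a pairing in such correlations, so they do not settle it. Python 3.11.15 and R 4.3.3 were used.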

Additional observations from a re-analysis of the deposited data

How the results depend on the processing

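No Hox tile was called in any of the 58 alternatives to the 5 tile comparisons, and the lowest adjusted p over all of them was 0.399. Leaving out a library gave 0 to 0 called Hox tiles, while calls over the genome became 0 in both comparisons with 24 h alone, 25 to 69 for long against short absence and 0 to 8 for the slope; it could not be done for 120 h against continuous estradiol, which then has no residual degrees of freedom, and a minimum of 20 reads left no Hox tile for long against short absence. With replicate number as a block, 0 Hox tiles were called in 4 comparisons and 0 tiles over the genome. Whether the numbers pair the libraries is not known. The Pearson dispersion, added after seeing the data, called 124, 94, 0, 33 and 2 tiles over the genome in place of 36, 34, 0, 61 and 6 (120 h against 24 h, 72 h against 24 h, 120 h against continuous, long against short, slope).

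Correlations with hours changed sign with pooled reads in HoxA (r = 0.0164), HoxB (0.076) and HoxD (-0.178), and with CpGs of 1 read in HoxD (-0.203). Leaving out each library in turn gave r of -0.347 to -0.231 in HoxA, -0.353 to -0.0107 in HoxB, -0.805 to -0.639 in HoxC and -0.0508 to 0.465 in HoxD, where the sign turned without the E2 library (-0.0489) and without the first 120 h library. HoxC was past the threshold with the main measure but missed it with CpGs of 1 read (-0.379), of 10 reads (-0.487) and pooled reads (-0.521). The cause was not tested. With 10 listed CpGs as the limit, 84.3% of Hox tiles were at 80% or more, against 48.2% elsewhere; with 30 it was 100% (15 tiles) against 24.7%. With 8 listed CpGs, 100% of 7 placed Hox promoters were at 80% or more. The first placing rule gave 0 promoters in place of 11. Depth limits single tiles: the median Hox CpG had 3 to 17 reads per library.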
